A study of Homo sapiens with 4 samples.

Results

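Long-intron spliced peaks are m7G peaks that join at least 2 blocks of sequence across a gap of 5000 bp or more in the genome. They were taken from the authors' lists of enriched regions in HepG2 cells, a human hepatocellular carcinoma line, by counting blocks and measuring the largest gap between consecutive blocks of each peak. The list of m7G immunoprecipitation (IP) replicate 1 held 228 such peaks among 3355, in 225 genes. The list of IP replicate 2 held 365 among 4747, in 357 genes. The cells were grown without treatment, and fragments of poly(A) RNA bound by an anti-m7G antibody were sequenced. The design comprised 2 IP samples and 2 input samples sequenced without the antibody step, all from the same line, and values of the input samples were not analysed here. The labels do not say whether samples of a group came from separate cultures, and the lists carry no read depth, so a single peak's fold has no interval of its own.

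N7-methylguanosine is the methylated base of the mRNA cap, added to the first nucleotide of every transcript made by RNA polymerase II, and it has also been described inside mRNAs. An intron is removed by joining the exon on its upstream side to the exon on its downstream side, so a stretch of mature mRNA that crosses this junction occupies distant blocks of the genome. In human genes the first intron is often the longest one, and the exon before it holds the cap and the start of the mRNA. A peak that crosses a long intron is therefore short on the mRNA and very wide on the chromosome.

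Whether the gaps are introns was not determined, and they were compared with the gene span alone. The largest gap lay inside the span of the named RefSeq gene for 228 of 228 peaks of replicate 1 and for 365 of 365 of replicate 2. The lists themselves name the gene of each peak, so this count cannot show that a gap is an intron. Splice-site letters and exon models were not analysed here, and the blocks are those of the deposited lists. When gap ends were compared between the lists, allowing them to differ by 10 bp left the share of matching gaps where it was with identical ends. How block ends were set is not stated in the sources used here, so whether identical ends were found independently was not tested.

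In some genes a peak covered the annotated start in both lists and crossed the same long gap. The start that these cells used was not measured, but the first annotated bases of the gene lie inside such a peak. These bases are shown for 8 such genes, because the start of the gene is where most long-intron peaks began. Each line gives 30 bases in 5′ to 3′ direction on the gene's strand (RefSeq, GRCh38.p14), with the 10 bases before the start in lower case and the first 20 bases of the gene in capitals.
PKP4, chr2:158456942-158456971, plus strand: gcctctgggcAGTAGAGGGGGCTCCGGGGC
KCMF1, chr2:84971151-84971180, plus strand: gggagccggcAGGCCCGAGAGTGACCGGAG
TM9SF3, chr10:96586993-96587022, minus strand: ggggaggctcAGGAGCGGGCGGTGACGGCG
AKT2, chr19:40285326-40285355, minus strand: ggggggccgcGCCGTGCTAGCCGTTGGGCC
SNX1, chr15:64095972-64096001, plus strand: cgataaagttGTTGTTGCGGCTTCCGCCGC
ZFAND3, chr6:37819717-37819746, plus strand: tctccgccccCTCCCCGTCTCCGCAGGCCG
RAB5C, chr17:42154970-42154999, minus strand: gctgaaaggcGGAAGTGGAGGCCGGAGCCT
MAP2K2, chr19:4124103-4124132, minus strand: ctccccctgcCTCTCGGACTCGGGCTGCGG

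The starts of these genes were rich in G and C. Over the first 50 bases of the gene, the median GC content was 74% for the 186 long-intron genes of replicate 1 with a RefSeq start sequence (of 225) and 72% for 292 of 357 in replicate 2. Genes with an unspliced peak had a median of 72% in both lists, and all 22199 protein-coding entries had 64%. The count of the dinucleotide CG in the 300 bases around the start had a median of 34 in long-intron genes of replicate 1 and 33 in those of replicate 2, against 31 in genes with unspliced peaks of either list and 21 over all protein-coding entries. The medians of long-intron genes lay nearer to those of other genes with peaks than to those of the whole gene set.

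Gaps covered a wide range above the threshold. The median gap was 12595 bp in replicate 1 and 13803 bp in replicate 2, with longest gaps of 146070 bp in ST7 and 121079 bp in NEDD4L. Gaps between 5000 and 10000 bp made up 91 peaks of replicate 1 and 133 of replicate 2, and gaps of 50000 bp or more made up 20 and 32. Most members joined exactly 2 blocks, 191 of 228 and 304 of 365. Long-intron peaks were 6.80% of all peaks in replicate 1 (95% Wilson interval 5.99 to 7.70%) and 7.69% in replicate 2 (6.96 to 8.48%), and 26.5% ± 1.09 (SD, n = 2) of the spliced peaks. Intervals here and below cover counting error only. The share on chromosome 19 was 15.4% and 14% of long-intron peaks, against 19.6% and 19.5% of short-gap spliced peaks and 11.6% and 12.2% of unspliced peaks.

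**Figure D1:**
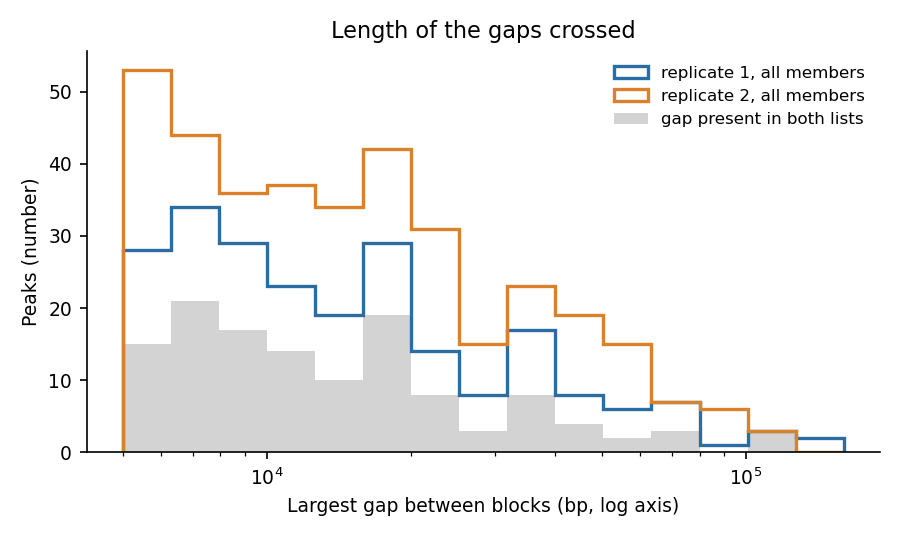
Length of the largest gap (x axis, bp, log scale) against the number of long-intron peaks (y axis) for replicate 1 (blue line) and replicate 2 (orange line). The 127 peaks with the same largest gap in both lists are in grey. Both lists thin out towards longer gaps, and the gaps found in both lists reach 121079 bp.

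On the mRNA the members had a median length like that of other spliced peaks. Their median length was 181 nt in both lists, against 181 nt in replicate 1 and 180 nt in replicate 2 for short-gap spliced peaks, in which the largest gap is below 5000 bp. Unspliced peaks had a median of 150 nt in both. The shortest members measured 60 nt, and the longest of replicate 2 was that of QKI, an RNA-binding protein, with 1559 nt.

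Long-intron peaks began at the 5′ end of their gene in a larger share than the other classes in both lists. In replicate 1, 144 of 228 (63.2%, 95% Wilson interval 56.7 to 69.2%) began within 200 nt of the gene's 5′ end or before it, against 39.1% of short-gap spliced peaks (35.4 to 42.8%) and 33.1% of unspliced peaks. Over all peaks of that list the share was 36.3%. In replicate 2 it was 226 of 365 (61.9%, 56.8 to 66.8%), against 29.0% of short-gap spliced peaks (26.2 to 31.9%), 27.9% of unspliced peaks and 30.8% over all peaks. The mean of the lists was 62.5% ± 0.877 (SD, n = 2). Because a long gap needs a long gene, the comparison was repeated in genes with a span of 20 kb or more, a setting chosen after the lists were seen. There the shares were 61.9% of long-intron peaks against 22.2% of short-gap spliced peaks in replicate 1, and 60.9% against 15.7% in replicate 2. A spliced peak at the 5′ end that crosses a gap of 5000 bp or more counts as long-intron by definition and so leaves the short-gap class. How much of the difference comes from this sorting was not tested. No test was made, since peaks are not replicates and both lists belong to 1 group. The 5′ end is the outermost start of the RefSeq gene, so a peak at an internal start counts as distant from it. The peaks of UBE2D2, a ubiquitin-conjugating enzyme, began 35223 and 35134 nt inside the gene, and whether an internal start lies there was not analysed.

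Few of these peaks ended at the other end of the gene. A single long-intron peak of replicate 1, in the translational repressor gene EIF4EBP1, ended within 200 nt of the gene's 3′ end, and 0 of 365 did in replicate 2, which allows a share of up to 0.822% by the limit of 3 counts of the total (95% Wilson upper bound 1.04%). The shares were 3.95% and 2.67% for short-gap spliced peaks, 7.34% and 6.94% for unspliced peaks, and 6.21% and 5.53% over all peaks.

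**Figure D2:**
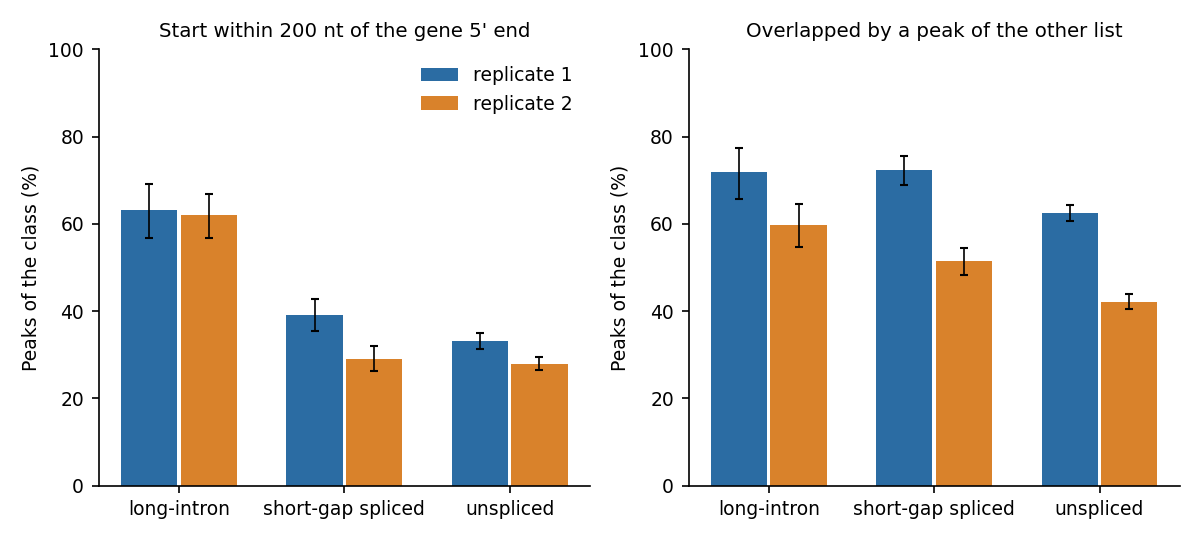
Share of peaks (y axis, %) that start within 200 nt of the gene's 5′ end (left) and that are overlapped by a peak of the other list (right), for long-intron, short-gap spliced and unspliced peaks of replicate 1 (blue) and replicate 2 (orange); bars are shares and lines are 95% Wilson intervals. Long-intron peaks stand at 63.2% and 61.9% on the left and at 71.9% and 59.7% on the right.

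The members were lopsided around the gap, with most of the peak on its upstream side. The median share of the peak upstream of the largest gap was 78.3% in replicate 1 and 77.7% in replicate 2, against 59.6% and 61.2% for short-gap spliced peaks. The upstream part had a median of 137 and 132 nt, and the downstream part 37 and 41 nt. More than 50% of the peak lay upstream in 180 of 228 peaks (78.9%, Wilson interval 73.2 to 83.7%) and in 270 of 365 (74.0%, 69.2 to 78.2%), against 59.7% and 58.9% of short-gap spliced peaks. The lean was present at both kinds of position. Among members that began at the gene's 5′ end it held for 86.1% and 82.7%, and among the others for 66.7% and 59.7%. For short-gap spliced peaks these shares were 75.1% and 74.8% at the 5′ end and 49.9% and 52.4% elsewhere.

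Many members reached only a few bases past the gap. The downstream block beside the gap was under 25 nt in 86 of 228 peaks of replicate 1 (37.7%) and 119 of 365 of replicate 2 (32.6%), against 20.2% and 22% of short-gap spliced peaks. The upstream block was under 25 nt in 12 (5.26%) and 31 (8.49%) members, against 11.2% and 13.9% of short-gap spliced peaks. Either block was that short in 43.0% and 41.1% of members, against 31.3% and 35.8% of short-gap spliced peaks. In KCMF1, a ubiquitin ligase gene, a single base lay past the gap in replicate 1 and 31 nt did in replicate 2. In CTDSP2, a phosphatase of the polymerase II tail, 6 nt lay past it in both lists, and in the 9-transmembrane family gene TM9SF3 11 nt did. The reverse shape was rarer. HDAC5, a histone deacetylase, had 10 nt upstream and 170 nt downstream of a gap of 16894 bp in both lists.

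**Figure D3:**
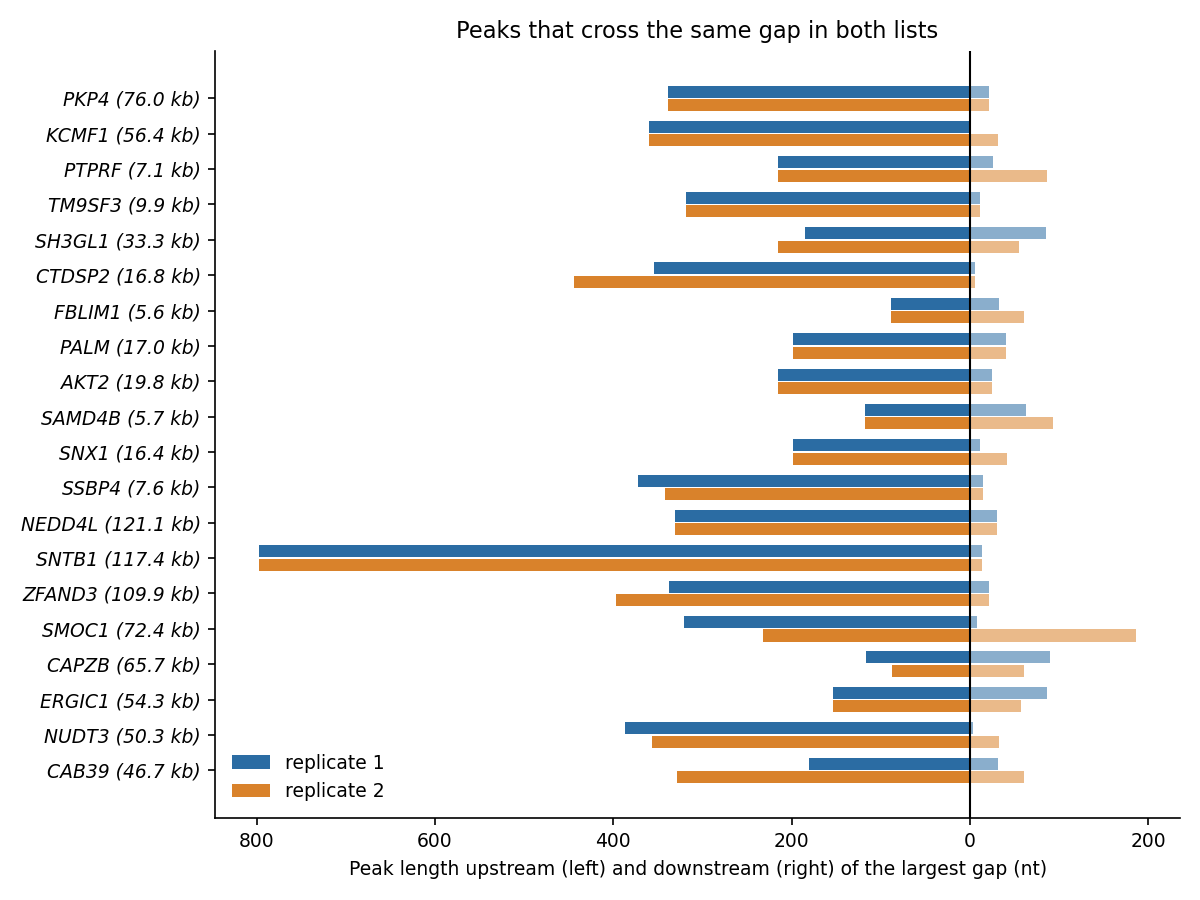
Length of the peak (x axis, nt) upstream (left of the line) and downstream (right of it, paler) of the largest gap in replicate 1 (blue) and replicate 2 (orange), for the 12 genes with the best fold ranks in both lists and the 10 with the longest gap in both, 20 genes in all; gap lengths stand beside the names. In SNTB1 797 nt lie upstream and 13 nt downstream in both lists.

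Enrichment of the members was close to that of unspliced peaks. The authors' fold, a ratio per peak whose compared libraries are not named in the headers, had a median of 3.87 in replicate 1 (quartiles 2.49 and 6.36) and 4.0 in replicate 2 (quartiles 2.89 and 5.80). Short-gap spliced peaks had medians of 3.10 (quartiles 1.92 and 5.00) and 3.49 (2.32 and 5.40), and unspliced peaks 3.89 and 3.95. The difference from short-gap spliced peaks was 0.765 in replicate 1 and 0.51 in replicate 2, and that from unspliced peaks was -0.025 and 0.05. The ranges of the classes overlapped widely, and no test over peaks was made. Position moved with fold as well. Members at the gene's 5′ end had median folds of 4.47 and 4.46, and the other members 3.20 and 3.50. Short-gap spliced peaks at the 5′ end had 3.89 and 4.22, so at that position the difference between the classes was 0.575 and 0.24. This comparison at matched position was chosen after the lists were seen. The part of position in the fold of the members was not tested. Folds of 10 or more were listed for 24 members of replicate 1 (10.5%) and 33 of replicate 2 (9.04%), against 7.42% and 8.09% of all peaks. The lowest folds were those of AMBP, a plasma protein precursor made by hepatocytes, with 1.15 and 1.16.

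The highest folds did not recur. DOC2B, a calcium-sensing exocytosis gene, had a fold of 66.8 in replicate 1, and TSNARE1 a fold of 50.6 in replicate 2, and neither gene had a peak in the other list. TSNARE1 was named after its value was seen. Some folds were shared by many peaks: the commonest was 7.42 in replicate 1, listed 107 times, and 6.33 in replicate 2, listed 196 times. The fold equalled 1 to 10 times this commonest value, within rounding, in 12 members of replicate 1 (5.26%) and 18 of replicate 2 (4.93%), against 5.16% and 6.93% of all peaks. Among the members counted are DOC2B, CERS2 and SSBP4 in replicate 1, TSNARE1 in replicate 2 and PKP4 in both lists.

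The agreement of the lists was examined at the levels of gene, peak and gap. A long-intron peak was present in 451 genes in either list and in 131 genes in both, which is 58.2% of those in replicate 1 and 36.7% of those in replicate 2. A peak of any kind was found in the other list for 81.3% of these genes of replicate 1 and 70.3% of these genes of replicate 2. Over all genes with a peak, these shares were 77.5% of the genes of replicate 1 and 60.7% of those of replicate 2. At the level of peaks, 164 of 228 members of replicate 1 (71.9%, Wilson interval 65.8 to 77.4%) met a same-gene peak of the other list over 50% or more of the shorter one, against 65.1% of all peaks of that list. In replicate 2 it was 218 of 365 (59.7%, 54.6 to 64.6%), against 45.4% of all peaks. Short-gap spliced peaks had 72.3% and 51.4%, and unspliced peaks 62.5% and 42.2%. Members thus lay above unspliced peaks in both lists, and their interval and that of short-gap spliced peaks overlapped in replicate 1.

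Exactly the same largest gap was found in both lists at 127 peaks. These are 55.7% of the replicate 1 members (Wilson interval 49.2 to 62.0%) and 34.8% of the replicate 2 members (30.1 to 39.8%). Over all spliced peaks the same count gave 53.4% and 35.4%, so the recurrence of long gaps was near the background. Members whose gap recurred had median lengths of 239 nt in replicate 1 and 240 nt in replicate 2, and those whose gap did not recur 150 nt and 179 nt. Short-gap spliced peaks differed in the same direction, with 210 and 211 nt where the gap recurred and 151 nt in both lists where it did not. Folds of the members are given next. Median folds were 4.07 in both lists where the gap recurred, and 3.58 and 4.0 where it did not.

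The 127 shared gaps lay in 126 genes. The peak began at the gene's 5′ end in both lists at 90 of them. Every block was identical in 26 pairs, the length upstream of the gap was the same in 55 and the length downstream in 57. The upstream part was the longer one in both lists in 91 pairs, and the downstream part in 20. Folds of these pairs lay within 1.5 times of each other in 84 pairs (66.1%) and more than 2 times apart in 13 (10.2%), and were higher in replicate 1 in 70 pairs and in replicate 2 in 57. Spearman's rho of the folds was 0.71 over the 127 same-gap pairs, and 0.73 over 127 long-intron peaks paired by 50% overlap. It is a description of peaks that share 2 libraries, and no p is given. The widest disagreement was in CERS2, a ceramide synthase, with folds of 37.1 in replicate 1 and 3.22 in replicate 2; it was named after its values were seen.

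**Figure D4:**
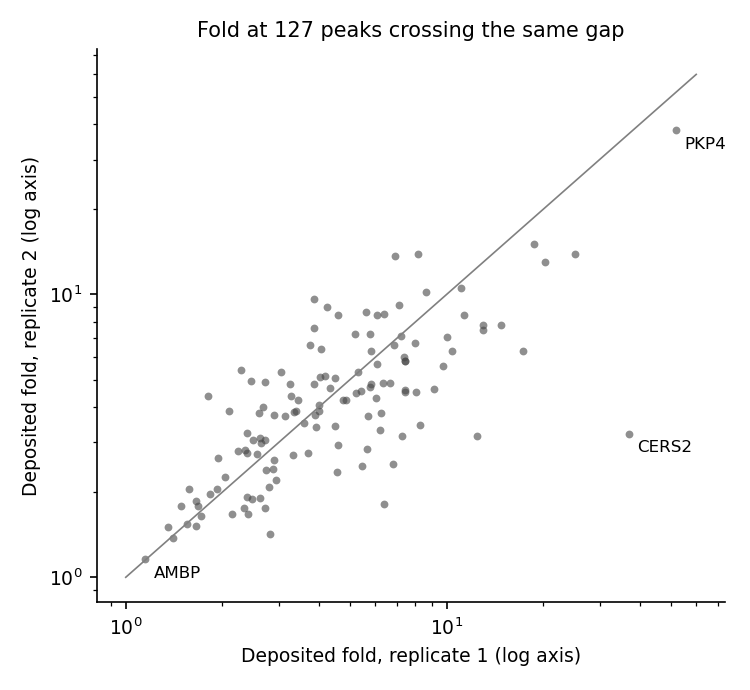
The authors' fold of replicate 1 (x axis, log) against that of replicate 2 (y axis, log) for the 127 peaks that cross the same long gap in both lists, with a line of equality. Among these pairs PKP4 has the highest fold in each list, AMBP the lowest, and CERS2 lies farthest from the line.

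The 12 same-gap genes with the best ranks of fold in both lists began near the gene's start in 9 cases. PKP4, a catenin-family gene of cell junctions, had folds of 51.9 and 38.0 at a peak on chromosome 2 (GRCh38) from 158456880 to 158533200 in both lists, with 339 nt before a gap of 75961 bp and 21 nt after it. Both folds of PKP4 are whole multiples of the commonest fold of their list, within rounding. KCMF1 had folds of 18.7 and 15.1 across 56421 bp. TM9SF3 had 20.2 and 13.0, with identical blocks in both lists from 96576819 to 96587052 on chromosome 10. These peaks were alike in covering the gene's start and ending soon after the gap.

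PTPRF, a receptor tyrosine phosphatase, differed from them by position. Its peak began 8825 nt inside the gene and had folds of 25.2 and 13.9, and in replicate 2 it ran on into another block. FBLIM1, a filamin-binding adaptor, also lay inside its gene, 2122 nt from the start, with folds of 8.16 and 13.9. SSBP4, of a single-stranded DNA-binding family, had folds of 14.8 and 7.80 at a peak 16611 and 16641 nt inside. The remaining genes of this group began near the gene's start.

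AKT2, a kinase of insulin signalling, had folds of 11.3 and 8.48 at identical blocks on chromosome 19 from 40265327 to 40285395. SNX1, a sorting nexin, had 13.0 and 7.82, and SH3GL1, an endophilin of endocytosis, had 11.1 and 10.5. CTDSP2 had 8.64 and 10.2, and PALM, a plasma membrane phosphoprotein, had 7.12 and 9.20 at identical blocks. SAMD4B, an RNA-binding protein of the Smaug family, had 6.89 and 13.7. Of the 12 genes, the fold was higher in replicate 1 in 8 and in replicate 2 in 4.

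Very long gaps were crossed at the same positions in both lists. NEDD4L, a ubiquitin ligase that acts on the epithelial sodium channel, had a gap of 121079 bp on chromosome 18 between 58044709 and 58165787, with folds of 4.85 and 4.25. Its blocks were identical in both lists, 331 nt before the gap and 30 nt after it. SNTB1, a syntrophin that binds the dystrophin complex, had a gap of 117364 bp on chromosome 8, with folds of 3.99 and 3.87 and 797 nt upstream. ZFAND3, an AN1-type zinc finger gene, had a gap of 109942 bp and folds of 5.22 and 4.49. In each of these genes the peak began within 200 nt of the gene's start.

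Shorter gaps of this group belonged to genes of other roles. SMOC1, a secreted matrix protein, had folds of 5.83 and 4.84 across 72360 bp, and CAPZB, a subunit of the actin capping protein, 4.48 and 3.44 across 65685 bp. NUDT3, a hydrolase with mRNA decapping activity, had 5.30 and 5.33 across 50291 bp. CAB39, a scaffold of the kinase LKB1, had 6.05 and 8.43 across 46728 bp. ERGIC1, of the compartment between endoplasmic reticulum and Golgi, had 8.29 and 3.45 across 54265 bp. Except for PKP4 and KCMF1, the folds of these 10 genes lay between 3.44 and 8.43.

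Where the gap did not recur as the largest one, the other list most often held an unspliced peak upstream of the gap or nothing in the gene. Of the 228 members of replicate 1, 27 met an unspliced peak upstream of the gap and 2 met one downstream. Of the 365 members of replicate 2, these numbers were 76 and 6. The upstream kind made up 11.8% and 20.8% of members, against 5.62% and 6.27% of short-gap spliced peaks. The downstream kind made up 0.877% and 1.64%, against 4.10% and 2.36%. A spliced peak with another largest gap was met by 6 and 9 members. A further 2 of replicate 1, in RBM33 and NPLOC4, met one that held the same gap beside a longer one. Counting any gap of the other peak raised the recurrence in replicate 1 from 55.7% to 56.6%. A peak elsewhere in the gene was present for 21 and 41, and no peak in the gene for 43 and 106. Replicate 2 held more peaks in all.

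**Figure D5:**
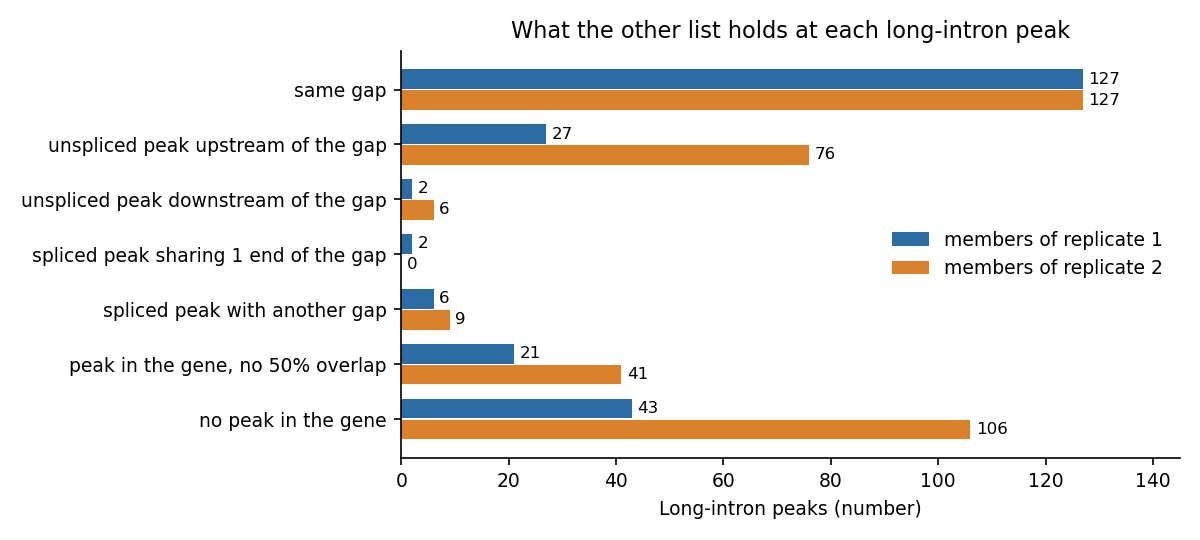
Number of long-intron peaks (x axis) of replicate 1 (blue) and replicate 2 (orange) by what the other list holds at the same place (y axis). In the class drawn as sharing 1 end of the gap, the 2 peaks of replicate 1 met the same gap beside a longer one. The same gap is the largest class in both, with 127. An unspliced peak upstream of the gap outnumbers one downstream of it, where most members had the shorter part of the peak to overlap.

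Many of the unspliced counterparts upstream of the gap ended near it, by distances counted along the genome. They stopped a median of 24 nt before it for members of replicate 1 and 37.5 nt for members of replicate 2 and in 16 of 27 and 32 of 76 cases within 30 nt of it. The distance was at most 116 bp for members of replicate 1, but reached 63594 bp for members of replicate 2. That longest distance was in QKI, whose peak of 8 blocks holds other gaps before its largest one. Members in this class had a downstream block under 25 nt in 16 of 27 and 39 of 76 cases, compared with 44 of 127 and 31 of 127 where the gap recurred. Median folds of the members were 4.80 and 4.58, and those of the unspliced counterparts 4.92 and 4.21.

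Regulators of transcription and splicing were among them; those given here were picked after their values were seen. FOXA3, a hepatocyte transcription factor, had a fold of 18.5 in replicate 1 at a peak with 236 nt before a gap of 7549 bp and 150 nt after it, and an unspliced peak with a fold of 8.43 in replicate 2. HNRNPD, an AU-rich element binding protein, had a fold of 14.2 in replicate 2 with 15 nt past a gap of 13806 bp, and 11 at the unspliced peak of replicate 1. AEBP2, a cofactor of Polycomb repressive complex 2, had 35.8 in replicate 2 with 24 nt past the gap, and 26.0 in replicate 1. RBFOX2, a splicing regulator, had 19 in replicate 2 with 2 nt past a gap of 89342 bp, and 13.0 in replicate 1. In these genes the upstream side of the gap carried a peak in both lists, and the lists differed in whether it ran across the gap.

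QKI had an unspliced peak in replicate 1 and 8 blocks in replicate 2. The replicate 2 peak ran on chromosome 6 from 163414643 to 163570716 with a largest gap of 56085 bp and a fold of 8.19, with 953 nt upstream and 606 nt downstream of that gap. The peak of replicate 1 began at the same base, ended at 163415302 and had a fold of 4.47.

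The longest gaps that did not recur lay mostly in genes without an overlapping peak. In replicate 1 these were ST7 (146070 bp, fold 3.18), the GTPase exchange factor IQSEC1 (131126 bp, 4.36), the transcription factor FOXP1 (87993 bp, 5.44), FNDC3B (72680 bp, 2.22), the ARF exchange factor CYTH1 (72469 bp, 10.4) and the endocytic adaptor EPN2 (72353 bp, 14.8). In replicate 2 they were the corepressor subunit TBL1XR1 (98579 bp, 7.68), the histone methyltransferase EHMT1 (91917 bp, 7.38), the RNA-binding gene RBPMS (89620 bp, 3.87), RBFOX2, the CoREST gene RCOR1 (88569 bp, 4.0) and the translation factor gene EIF4G3 (86961 bp, 3.68). Of these 12 genes, TBL1XR1, RBPMS and RBFOX2 had an unspliced peak upstream of the gap in replicate 1. The others had no overlapping peak.

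Peaks of 5 or more blocks were few, 5 in replicate 1 and 4 in replicate 2. COL27A1, a fibrillar collagen gene, held 1 in replicate 1 with a fold of 4.07 and 2 in replicate 2 with folds of 6.43 and 12.5, the last with 12 blocks. COL18A1, a basement membrane collagen, held a peak of 9 blocks with a fold of 1.6 in replicate 1. RPS19, a ribosomal protein of the small subunit, had 5 blocks and a fold of 1.40 in replicate 1 and 1.38 in replicate 2 over the same largest gap. AMBP also had 5 blocks in replicate 1, QKI had 8 in replicate 2, and TRAF7, a ubiquitin ligase gene, had 5 there with a single base upstream of its largest gap.

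The genes were then counted by families set by their symbols. Over all 3769 genes with a peak in either list, 451 (12%) had a long-intron peak. Small GTPases and their regulators had 18 of 100 genes, cytoskeleton and junction genes 11 of 64, RNA-binding and splicing genes 12 of 55, and zinc finger, KLF and ZBTB factors 13 of 83. Chromatin enzymes and remodelers had 9 of 63, solute carriers and ATPases 15 of 106, and kinases and phosphatases 16 of 138. Ubiquitin ligases and deubiquitinases, counted together with all genes of UBE symbols such as the conjugating enzyme UBE2D2, had 12 of 117. Genes of Wnt, Notch, Hippo and TGF-beta signalling had 4 of 25. These shares ran from 10.3% to 21.8%. Families differ in intron length, which was not measured here, so nothing particular to a family is drawn from them.

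The same largest gap was present in both lists in 126 of the 451 genes (27.9%). It was present in 16.7% to 63.6% of the long-intron genes of the 9 families, which hold 4 to 18 such genes each. Cytoskeleton genes had it in 7 of 11. MAP7D1, a microtubule-associated protein gene, had folds of 6.36 and 8.56, and MYO1C, an unconventional myosin, 5.19 and 7.23. Of chromatin genes, 5 of 9 had the same gap. HDAC5 had folds of 7.95 and 6.72, and ARID1A, a SWI/SNF subunit, 6.87 and 6.64 across 32110 bp.

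Among RNA-binding genes, 4 had a long-intron peak in replicate 1 and 11 in replicate 2, and 2 had the same largest gap. ELAVL1, which encodes the mRNA-stabilising protein HuR, had folds of 9.15 and 4.64, and HNRNPLL 3.05 and 5.33. GTPase genes with the same gap numbered 5, among them the endosomal RAB5C (4.59 and 8.43) and RABL6 (3.40 and 3.87). Kinase and phosphatase genes with it numbered 5, among them MAP2K2, which encodes the ERK kinase MEK2 (4.04 and 5.12), and DUSP9, a MAP kinase phosphatase (3.35 and 3.85). In DUSP9 the part past the gap was 397 nt in replicate 1 and 10 nt in replicate 2, and the upstream part was 169 nt in both.

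Solute carriers and ATPases had the same gap in 5 of 15 long-intron genes. The family of ubiquitin ligases, deubiquitinases and UBE symbols had it in 3 of 12, UBE2D2 among them. Zinc finger, KLF and ZBTB factors had it in 3 of 13, and the signalling family in 1 of 4. KLHL5 had folds of 3.91 and 3.41, and UBE2D2 2.64 and 2.98. ABCC3, an organic anion exporter of hepatocytes, had folds of 5.77 and 4.69. The Hippo pathway factor TEAD3 had 4.57 and 2.36. ZNF219 had 3.86 and 4.81, and ZNF787 2.74 and 2.40. In these genes both folds lay within 2 times of each other.

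Hepatocyte markers were counted in the same way. Of 24 genes of secreted liver proteins, 10 had any peak and 2 a long-intron peak, AMBP and the retinol carrier RBP4 (fold 1.19 in replicate 1). Of 13 hepatocyte transcription factors, 8 had any peak and FOXA3 alone a long-intron peak. These are 20% and 12.5% of the marker genes with a peak, against 12% over all genes with a peak, and rest on 3 genes. Of markers of other cell types, 2 of 16 immune genes had any peak and 0 a long-intron peak, and the smooth muscle actin gene ACTA2 was the single gene of the 16 endothelial and stellate markers with either, with folds of 3.69 and 2.74. Peaks do not measure expression, so these counts do not show which genes were expressed.

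The peaks nearest the threshold of 5000 bp are given as a description. Just inside it were DOC2B (5037 bp), LOXL4 (5080 bp, folds 7.42 and 4.6) and COL18A1 (5108 bp) in replicate 1, and DGAT1 (5028 bp, fold 5.54), LOXL4 and ESPN (5087 bp, fold 2.95) in replicate 2. Just outside it were SQSTM1 (4982 bp, folds 2.40 and 2.20), PPIL2 (4966 bp, 3.84 in replicate 1) and EED (4952 bp, 12.7 in replicate 2). LOXL4 and SQSTM1 crossed the same gap in both lists.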

How the data were processed

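The authors deposited 1 list of peaks per IP sample, per the file headers holding coordinates, strand, gene, blocks and the fold beside a p-value and its log10 forms. STAR and the build GRCh38 are named, without a role or version, per the submitters' processing notes; which peak caller and filters were used, and the depth, is not given in the sources used here. Each fold is the authors' ratio per peak, the p-value is the authors' own, and the deposited log10 p was treated as a score, used to keep the better-scoring 50% of peaks. These values describe, rank or filter peaks within a list.

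Starts are counted from 1; deposited starts count from 0, since the deposited start plus 1 equalled the gene start at 14 plus-strand peaks of any class (replicate 1) and 18 (replicate 2), and the unshifted start at 5 and 2. Peaks with 2 or more blocks and a largest gap of 5000 bp or more were the members. Gene names were matched to RefSeq (GRCh38.p14) by symbol for 220 and 348 members and by an older symbol for 8 and 17; current symbols are given. Overlap meant the same gene and strand and 50% of the shorter peak, in blocks. How reads from gene copies were assigned is not stated. Both lists belong to 1 group, so shares carry 95% Wilson intervals and no test was made. Classification and overlap were tested on simulated data. Members, lists and settings were chosen with earlier results of these data known. Genes named are the 12 best by the lower rank of fold in both lists, the 10 with the longest recurring gap, up to 2 per family, the 6 longest non-recurring gaps per list, QKI and the 3 peaks on each side of the threshold per list; others are said to be chosen after their values were seen or are named for a count of 5 or fewer. Some genes that these rules name are not reported here. Tables were handled with pandas 2.3.3 and numpy 2.4.6 in Python 3.11.15, correlations with scipy 1.17.1 and plots with matplotlib 3.10.9.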

Additional observations from a re-analysis of the deposited data

How the results depend on the processing

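Leaving out a list gives the value of the other list, so it says nothing of stability. Of 38 other values recomputed for 9 results, 16 moved by no more than the spread between the lists. The correlation of folds, which has no such spread, ranged from 0.73 to 0.80 over 4 alternatives. With a largest gap of 10000 bp or more, the share of members was 4.49% of all peaks and 16.4% of spliced peaks, fewer by construction; 67.0% began at the gene's 5′ end, 44.5% had a block under 25 nt, and the difference in median fold from unspliced peaks was 0.215 and in median length from short-gap peaks 14.2 nt. For the better-scoring 50% of peaks by p these values were 9.19% of all peaks, 69.1%, 36.6%, -0.095 and 10.2 nt, and the fold difference from short-gap peaks was 0.985. That difference was 0.408 among peaks at the gene's 5′ end, chosen after seeing the data. With exactly 2 blocks, 64.5% began at the 5′ end and the length difference was 14.5 nt. These length differences are means of 2 unlike lists. At 10000 bp or more the difference was 0 nt in replicate 1 and 28.5 nt in replicate 2. For the better-scoring 50% it was -1 and 21.5 nt, and with exactly 2 blocks 0 and 29 nt. With 25 nt or more on each side of the gap, the fold difference from unspliced peaks was 0.138; without one replicate it ranged from -0.025 to 0.05, so its sign is not settled. With 80% reciprocal overlap, 31.8% of members were overlapped. Wider windows of 500 and 1000 nt gave 70.3% and 74.5% at the 5′ end, and genes of 20 kb or more, also chosen after seeing the data, 61.4%. A block limit of 50 or 10 nt gave 70.0% and 16.6%. The cause of these shifts was not tested where it is not set by construction. No paired analysis was possible because values of 1 group alone were analysed. The unknown depth bounds what could be called in each list.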
